A study of Mus musculus with 16 samples.

Results

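The 37 genes of the mouse mitochondrial genome were examined here across 16 brain RNA-seq libraries. They were taken as every gene whose symbol starts with mt- in the deposited table of raw counts, which gave 37 of 54532 table rows: 13 protein-coding genes, 2 ribosomal RNA (rRNA) genes and 22 transfer RNA (tRNA) genes. All are annotated on chromosome M of the build GRCm38. The rule uses the symbols alone.

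The libraries came from female mice of 9 months of age and form 4 groups of 4, which pair each Ch25h genotype (+/+ or -/-) with each tau state (Tau- or Tau+). Ch25h encodes cholesterol 25-hydroxylase, an enzyme that makes an oxysterol, and -/- mice lack it. Tau+ is taken to mean that a tau transgene is present. The labels do not name the transgene, its promoter or how the deletion was made, and they give each library its own name without stating that each came from a separate animal. The p-values below therefore measure the spread between these libraries. The tissue label is frontal cortex, while the series text names the hippocampus.

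Mitochondrial DNA is a small circular genome that is read from both strands into long precursor RNAs. Many of the tRNAs lie between the longer genes and are cut out of the precursors, which frees the messenger RNAs and rRNAs on either side. The messenger RNAs encode core subunits of respiratory complexes I, III and IV and of the ATP synthase (complex V), the rRNAs build the mitochondrial ribosome and the tRNAs serve its translation. Neurons depend strongly on this respiratory chain for ATP.

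The tRNAs on which the results turn are shown as the annotated gene sequences, written as DNA 5′ to 3′ on the gene's own strand, with the anticodon in capitals. The gene sequences are from the GENCODE M21 transcripts of GRCm38 and lack the CCA end that is added after transcription. mt-Tc (tRNA for cysteine, chrM:5192-5257, minus strand), mt-Th (histidine, chrM:11546-11612, plus strand) and mt-Tp (proline, chrM:15356-15422, minus strand) passed the test in at least 1 comparison. mt-Tn (asparagine, chrM:5089-5159, minus strand) lies beside mt-Tc and is shown as the tRNA that was lower in every Ch25h-/- Tau- library than in every Ch25h+/+ Tau- library; it was chosen after its values were seen.
mt-Tc: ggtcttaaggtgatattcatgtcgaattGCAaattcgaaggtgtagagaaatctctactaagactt
mt-Th: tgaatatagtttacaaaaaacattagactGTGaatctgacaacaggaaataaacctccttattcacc
mt-Tp: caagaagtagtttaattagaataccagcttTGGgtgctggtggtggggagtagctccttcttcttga
mt-Tn: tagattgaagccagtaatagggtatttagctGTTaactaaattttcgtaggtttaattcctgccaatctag

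Depth was 15530352 to 25602500 counts per library. Ch25h, the check of the genotype labels, was called lower with Ch25h loss in Tau- (adjusted p = 0.0320) and in Tau+ (adjusted p = 0.00137) by edgeR's quasi-likelihood test with Benjamini-Hochberg adjustment over all genes. These calls are between groups and do not check the label of any single library. The nuclear-encoded rRNA transcript CT010467.1 stood at 2289 to 5684 CPM (counts scaled to a common library total) in 7 of the 8 Ch25h-/- libraries, called rRNA-rich here, and at 111 to 475 in the other 9, called rRNA-poor. The rRNA-poor Ch25h-/- library was replicate 1 of Ch25h-/- Tau+. Malat1, a nucleus-retained RNA, was also higher in the rRNA-rich libraries, at 392.2 to 1041 against 167 to 290 CPM of total counts, but the sum of the nucleus-retained RNAs Malat1, Meg3 and Neat1 overlapped, at 3674 to 6069 and 3091 to 4911 CPM. Markers of cortical excitatory neurons (5 of 5 detected) summed to 2158 to 2285 CPM in Ch25h+/+ Tau- and, without overlap, 1682 to 2097 in Ch25h-/- Tau-, and to 2010 to 2122 and 1871 to 2071 in the same genotypes of Tau+, which overlapped. Oligodendrocyte markers summed to 1578 to 2589 CPM in the rRNA-rich and 2084 to 3970 in the rRNA-poor libraries, and hippocampal markers to 25.1 to 73.2 CPM over all libraries. Microglia markers (4 of 4 detected) summed to 233 to 285 CPM in Ch25h+/+ Tau+, without overlap above the 193 to 207 of Ch25h+/+ Tau- and the 192 to 220.0 of Ch25h-/- Tau+, and to 185 to 215 in Ch25h-/- Tau-. Astrocyte markers summed to 697 to 970 CPM and blood markers to 2.32 to 37.7 CPM over all libraries. Summed choroid plexus markers ranged from 16.5 to 2793 CPM, with a wide range in every group. The part of these marker levels in the results was not tested.

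The mitochondrial genome took a larger share of the counts in Ch25h-/- than in Ch25h+/+ libraries. The share was 3.12, 2.90, 3.68 and 3.38% in Ch25h+/+ Tau-, 2.79, 3.13, 3.41 and 3.08% in Ch25h+/+ Tau+, 4.38, 4.04, 4.57 and 3.78% in Ch25h-/- Tau- and 3.09, 4.13, 4.22 and 4.56% in Ch25h-/- Tau+. The Tau- groups did not overlap, and in Tau+ 1 of the 4 Ch25h-/- libraries, replicate 1, lay among the Ch25h+/+ libraries. Group means were 3.27% ± 0.334 and 4.19% ± 0.352 in Tau- and 3.10% ± 0.255 and 3.998% ± 0.633 in Tau+ (Ch25h+/+ and then Ch25h-/-, SD, n = 4), which are differences of 0.920 and 0.896 percentage points. In bulk tissue, fewer cells of a type and less RNA per cell cannot be told apart. No test was run on this sum.

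The same order followed the rRNA content of the libraries. The 7 rRNA-rich libraries held 3.78 to 4.57% mitochondrial counts and the 9 rRNA-poor ones 2.79 to 3.68%, with no overlap. No Ch25h+/+ library was rRNA-rich, so genotype and rRNA content cannot be told apart except through replicate 1 of Ch25h-/- Tau+, the one rRNA-poor library without Ch25h, at 3.09%.

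**Figure D1:**
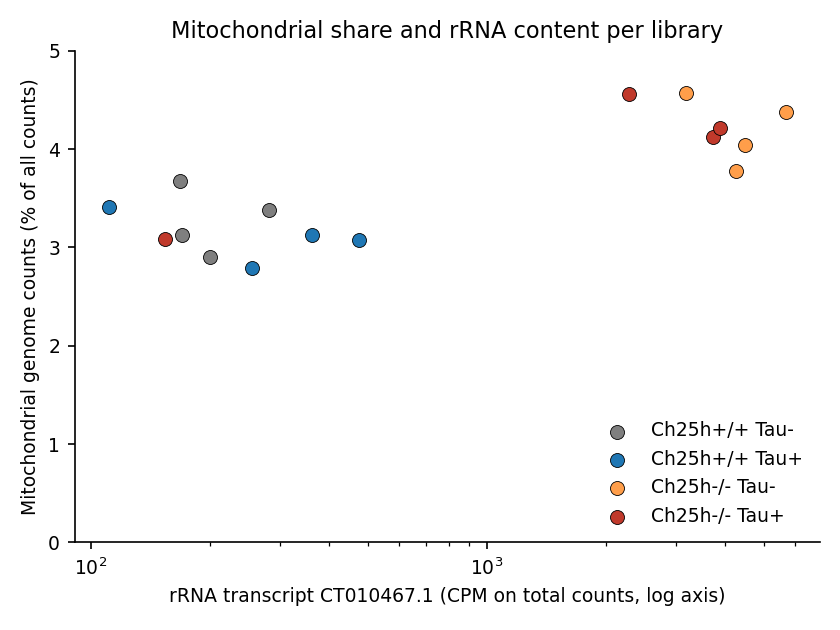
Counts of the 37 mitochondrial genes as a percentage of all counts (y axis) against the CPM of the rRNA transcript CT010467.1 on total counts (x axis, log scale), 1 point per library and 1 colour per group. The 7 rRNA-rich libraries sit at 3.78 to 4.57% and the 9 rRNA-poor ones, with 1 Ch25h-/- Tau+ library among them, at 2.79 to 3.68%.

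Levels per gene length differed by orders of magnitude between members. On the scale of CPM per kilobase (median over the 16 libraries, CPM on library sizes scaled by TMM), mt-Co1, the catalytic subunit of complex IV, was highest at 8888, followed by mt-Cytb, the cytochrome b of complex III, at 4333. The complex I genes mt-Nd1, mt-Nd2, mt-Nd4, mt-Nd6 and mt-Nd5 lay at 3981, 2329, 1839, 1758 and 1721 CPM per kilobase. mt-Co1 and mt-Nd4 were divided by their full length, though part of each is matched by a near-identical pseudogene described below, so their ranks are uncertain. The small-subunit rRNA mt-Rnr1 was at 2019 and the large-subunit rRNA mt-Rnr2 at 1600, the latter just below the lowest of these messenger RNAs. Among tRNAs, mt-Tp was highest at 669 and mt-Tc next at 196, although the library kit is described as one for mRNA.

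The other 6 protein-coding genes, mt-Co2, mt-Atp8, mt-Atp6, mt-Co3, mt-Nd3 and mt-Nd4l, stood at 2.92 to 149 CPM per kilobase, below the 1721 to 8888 of the first 7. These 6 lie wholly inside chrM:6390-11042, the 4653 bases between the first and last base matched by 7 annotated pseudogenes on chromosome 1 (chr1:24611535-24616197, minus strand). The matches do not cover every base of that stretch, and only annotated transcripts were searched. mt-Co1 and mt-Nd4 lie partly inside it, and the 5 protein-coding genes wholly outside it ranged from 1721 to 4333. The 5 tRNAs inside it, mt-Ts1, mt-Td, mt-Tk, mt-Tg and mt-Tr, lay at 0 to 16.1 CPM per kilobase, while the 17 outside ranged from 0 to 669. How reads with several matches were counted is not given in the sources used here, and its part in these levels was not tested.

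The 7 copies on chromosome 1 match their genes with at most 1 mismatch over the matched part. Gm28661 matches 681 bases of mt-Co2, Gm10925 678 bases of mt-Atp6, Gm28437 783 bases of mt-Co3, Gm10222 294 bases of mt-Nd4l and Gm28439 876 bases of mt-Nd4, each with 0 mismatches. Gm28438 matches 345 bases of mt-Nd3 and Gm29216 483 bases of mt-Co1, each with 1 mismatch. Both mismatches are shown in capitals, with positions counted from 1 at the 5′ end of the mitochondrial gene: T3C in mt-Nd3 and A1066T in mt-Co1, the mitochondrial base first and the copy's base last. These windows (chrM:9459-9491 and chrM:6390-6423, plus strand) show how few letters separate a member from its copy.
mt-Nd3: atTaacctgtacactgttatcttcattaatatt
Gm28438: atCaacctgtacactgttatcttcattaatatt
mt-Co1: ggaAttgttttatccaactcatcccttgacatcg
Gm29216: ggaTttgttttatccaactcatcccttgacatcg

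Another 4 copies on other chromosomes are less alike, with 17 to 46 mismatches. Gm13340 spans all of mt-Co1 with 37 mismatches and had 51 to 253 counts per library, and Gm13341 spans mt-Co2 with 28 and had 0 to 26. Gm13339, with 510 bases and 17 mismatches to mt-Nd2, had 3 to 15 counts per library, and Gm4076, with 954 bases and 46 mismatches to mt-Nd5, had 0 to 3.

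The copies on chromosome 1 also carried counts. Across all libraries mt-Co2 stood at 53.1 to 119 CPM and Gm28661 at 46.6 to 106, and mt-Atp6 at 38.7 to 172 CPM and Gm10925 at 28.1 to 63.2. mt-Nd3 stood at 14.2 to 53.8 CPM and Gm28438 at 1.06 to 3.79. The values of mt-Co2, mt-Atp6, mt-Co3, mt-Nd3 and mt-Nd4l are uncertain for this reason, as are those of mt-Co1 and mt-Nd4 over the part copied on chromosome 1. For mt-Atp8 no copy of at least 100 bases was found among the transcripts searched, but its end overlaps the start of mt-Atp6, which has a copy. The 5 tRNAs inside the stretch are 65 to 70 bases long. A match had to span at least 100 bases, so the search could not find copies of these tRNAs.

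**Figure D2:**
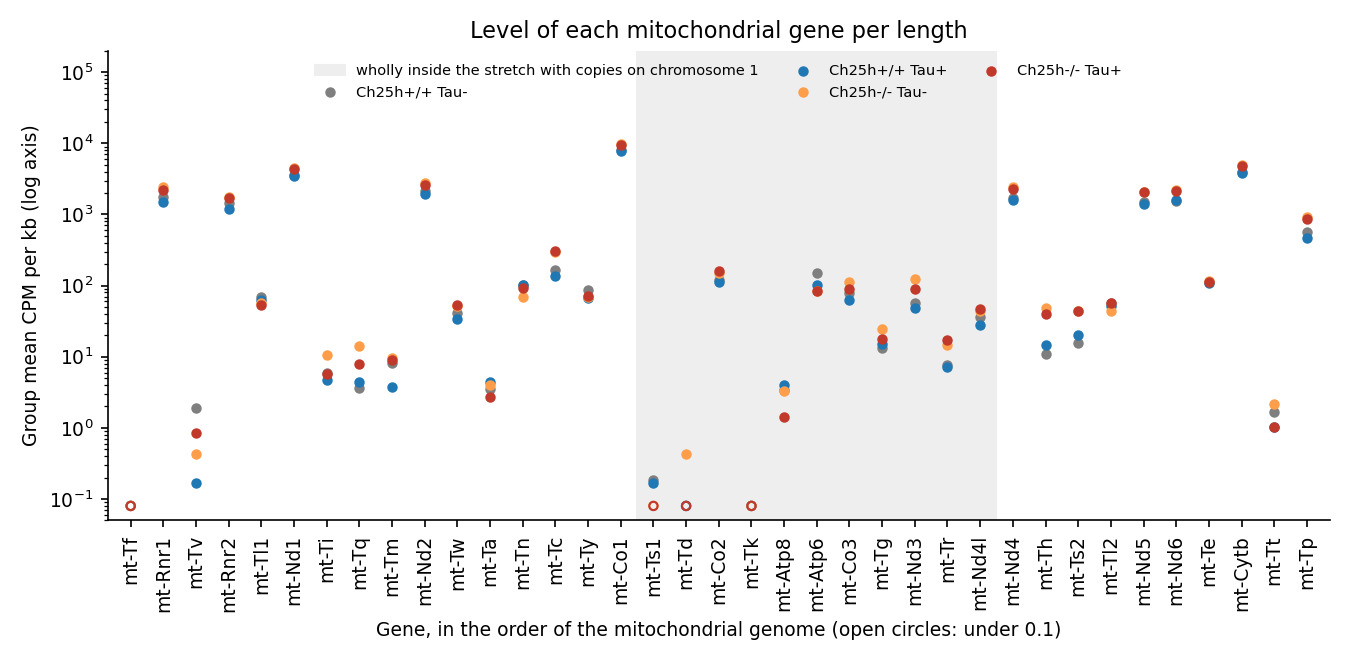
Group mean CPM per kilobase (y axis, log scale) of all 37 mitochondrial genes in genome order (x axis), 1 colour per group, with the genes wholly inside the stretch that has copies on chromosome 1 shaded and values under 0.1 drawn as open circles. Protein-coding genes inside the shaded stretch sit at or below 149 CPM per kilobase in the median over libraries, against 1721 to 8888 for the other 7.

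Of the 37 members, 29 passed the filter on low counts and were tested: 13 of 13 protein-coding genes, 2 of 2 rRNAs and 14 of 22 tRNAs. The 8 that did not pass were all tRNAs. The filter asks for about 10 counts in at least 4 libraries, and 3 of the tRNAs tested reached that level in fewer than 4 Ch25h+/+ libraries. mt-Tq reached it in 0 Ch25h+/+ and 4 Ch25h-/- libraries, mt-Tm in 2 and 5 and mt-Tr in 3 and 7, so mt-Tq passed only through Ch25h-/- libraries. mt-Atp8 reached it in 6 Ch25h+/+ and 3 Ch25h-/- libraries. All 4 stay in the counts and medians over the 29 members, which therefore rest in part on members that reached the level mainly in libraries of a single genotype. Over the 16 libraries together, mt-Tf and mt-Tk had 0 counts, mt-Ts1 and mt-Td 2 each, mt-Tv 18, mt-Tt 31, mt-Ta 78 and mt-Ti 140. A library with 0 counts allows a level of up to 3 counts, which is 0.117 to 0.193 CPM on total counts and covers counting error only.

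With Ch25h loss in Tau-, 3 of the 29 members rose and 0 fell, where 0.214% of all 17736 genes tested were called higher and 0.812% lower, in edgeR's quasi-likelihood test with Benjamini-Hochberg adjustment over all genes. They were mt-Nd4 and mt-Nd3, both complex I subunits, and the tRNA mt-Th. With Ch25h loss in Tau+, 6 of 29 rose and 0 fell, where 1.14% of all genes were called higher and 2.40% lower: mt-Nd4, mt-Nd3, mt-Th, mt-Tc, mt-Tp and mt-Rnr1. The median log2 fold change of the members was 0.34 in Tau- and 0.50 in Tau+, against 0.01 and 0.00 over all genes tested, and 23 and 25 of the 29 were above 0. Those above 0 in both included mt-Tq, mt-Tm and mt-Tr, which reached the filter level in few Ch25h+/+ libraries. mt-Atp8 was below 0 in both. Before adjustment, 20 members in Tau- and 21 in Tau+ had a p under 0.05, where 20.9% and 23.9% of all genes did. These members included mt-Tq in Tau- and mt-Tm, mt-Tr and mt-Atp8 in Tau+.

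Both comparisons gave other values once the rRNA class entered the model. When the rRNA class of each library was added to the model, 0 members were called in either comparison, where 0.00% and 0.0564% of all genes were called, and the median log2 fold change of the members became -0.20 in Tau- and -0.02 in Tau+. That term rests on the 1 rRNA-poor Ch25h-/- library, since in Tau- the rRNA class and the genotype coincide fully. The loss of calls therefore cannot tell rRNA content from genotype. Members are poor in G and C, with a median GC content of 35.8% against 49.6% for all genes tested. With offsets corrected for GC content in each library, 1 member was called in each comparison, mt-Th in Tau- and mt-Tc in Tau+, where 0.0846% and 1.07% of all genes were called, and the medians were 0.13 and 0.20.

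Leaving out single libraries also changed the counts. In Tau+ the count ranged from 1 to 19. It was 19, with mt-Tm and mt-Tr among them, when replicate 1 of Ch25h-/- Tau+ was left out (3.45% of all genes were called higher in that fit). It was 1 without replicate 1 or 4 of Ch25h+/+ Tau+ or without replicate 2, 3 or 4 of Ch25h-/- Tau+. Calls over all genes moved with them, from 629 with all libraries to 1691 in the fit with 19 members called and to 269, 108, 218, 117 and 151 in those with 1. In Tau- it ranged from 0 to 7. It was 0 without any 1 of the Ch25h+/+ Tau- libraries and without replicate 1 or 3 of Ch25h-/- Tau-, 1 without its replicate 2, and 7 without replicate 1 of either Tau+ group. Over all genes the Tau- calls went from 182 with all libraries to 3 to 21 in the fits with 0 members called, to 13 in the fit with 1, and to 1306 and 499 in those with 7. Of the 16 fits that left out 1 library, the Tau- call was made in 2 for mt-Nd4, in 9 for mt-Nd3 and in 10 for mt-Th. The Tau+ call was made in 16 for mt-Tc, in 11 for mt-Nd4 and for mt-Tp, in 10 for mt-Rnr1 and for mt-Th, and in 8 for mt-Nd3.

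Relative log expression size factors called 3 and 6 members in Tau- and Tau+, where 1.02% and 3.66% of all genes were called, and scaling without the members also called 3 and 6, where 178 of the 17736 genes were called in Tau- and 638, or 3.60%, in Tau+. Fitting just the 8 libraries of a comparison called 10 members in Tau-, where 7.27% of all genes were called, and 0 in Tau+, where 0.625% were. DESeq2 called 8 and 15 members in Tau- and Tau+, where it called 6.34% and 8.42% of all genes. Without the filter on low counts edgeR called 8 members in Tau-, with mt-Atp6 among them as lower, and 11 in Tau+, where 1.54% and 2.58% of all genes were called.

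**Figure D3:**
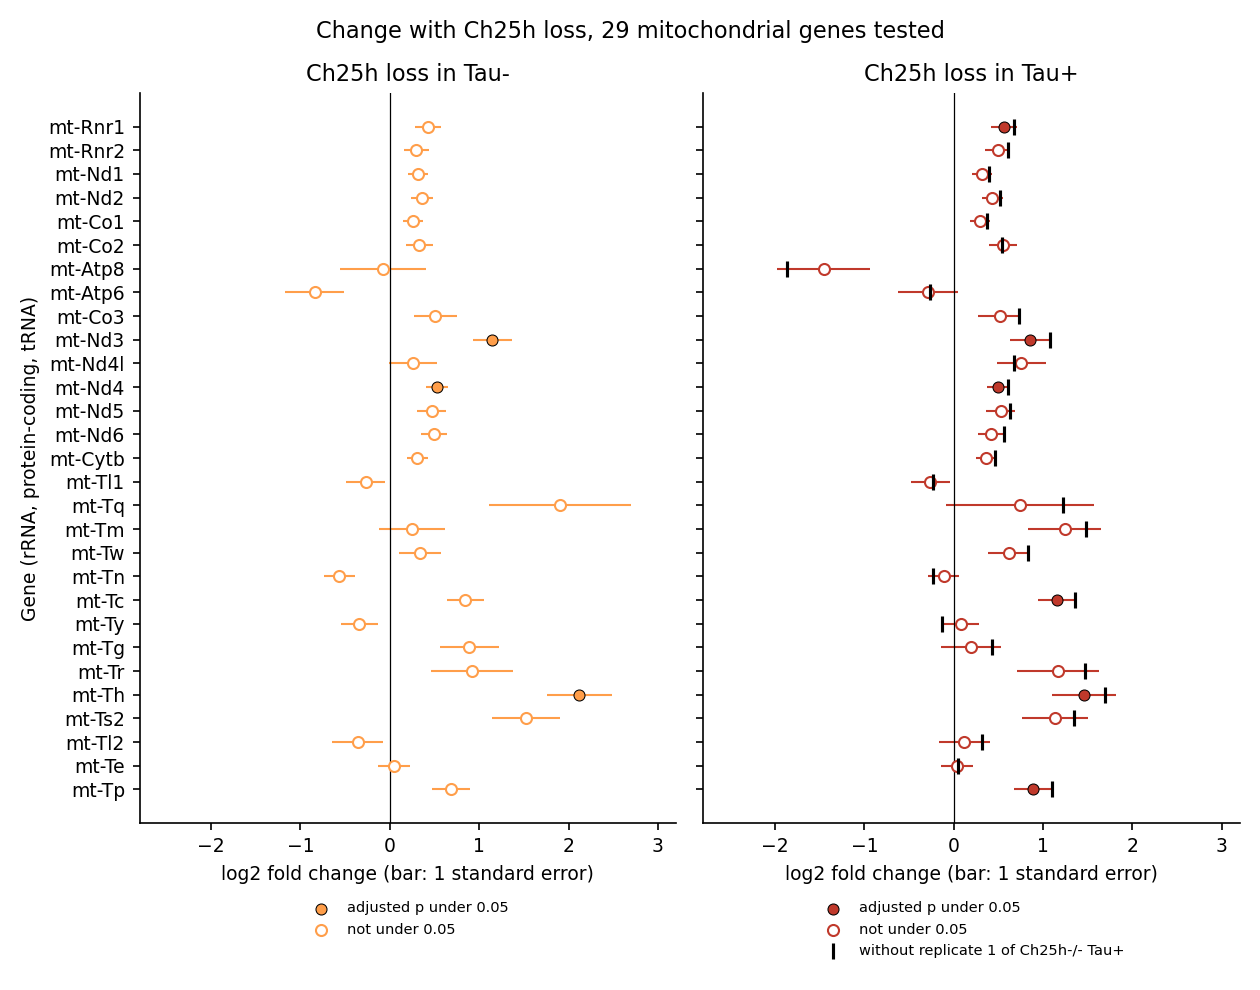
Log2 fold change with Ch25h loss in Tau- (left) and Tau+ (right) of the 29 members tested, with bars of 1 standard error, filled where the adjusted p of edgeR's quasi-likelihood test was under 0.05. Black ticks give the Tau+ value without replicate 1 of Ch25h-/- Tau+, and most points lie above 0, with 23 of 29 in Tau- and 25 of 29 in Tau+. Those above 0 include mt-Tq, mt-Tm and mt-Tr, which reached the filter level in few Ch25h+/+ libraries.

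Complex I, which takes electrons from NADH, has 7 subunit genes in this genome, and all 7 had a positive log2 fold change with Ch25h loss in both tau states, where 51.4% of all genes did in Tau- and 50.7% in Tau+. This was not particular to complex I. In each tau state 11 of the 13 protein-coding genes were positive, all but mt-Atp6 and mt-Atp8, and both rRNAs were too. With the rRNA class in the model 1 of the 7 was positive in Tau- and 4 in Tau+, and mt-Nd1, mt-Nd3 and mt-Nd6 were negative in both. mt-Nd3 and mt-Nd6 were at -0.21 and -0.27 in Tau- and at -0.26 and -0.19 in Tau+. In Tau- mt-Nd2, mt-Nd5 and mt-Nd4 were negative too, mt-Nd4 at -0.06. mt-Nd4 stood at 2252, 2053, 2534 and 2535 CPM in Ch25h+/+ Tau-, at 3296, 3216, 3740 and 3212 in Ch25h-/- Tau-, at 1949, 2241, 2518 and 2106 in Ch25h+/+ Tau+ and at 2265, 3274, 3252 and 3648 in Ch25h-/- Tau+. The Tau- groups did not overlap, and in Tau+ the lowest Ch25h-/- library, replicate 1, lay inside the Ch25h+/+ range. mt-Nd4 rose by 0.52 on the log2 scale in Tau- (SE 0.12, adjusted p = 0.0497, edgeR) and by 0.50 in Tau+ (SE 0.12, adjusted p = 0.0352, edgeR). Like mt-Nd3, it is described in full because it was called, which was decided after its values were seen.

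mt-Nd3, a small membrane subunit of complex I, showed the largest change of the protein-coding genes in Tau-. Its level was 18.7, 17.0, 22.3 and 20.3 CPM in Ch25h+/+ Tau-, 43.4, 36.9, 53.8 and 39.5 in Ch25h-/- Tau-, 16.3, 19.4, 17.6 and 14.6 in Ch25h+/+ Tau+ and 14.2, 33.2, 38.0 and 37.7 in Ch25h-/- Tau+. Every Ch25h-/- library but replicate 1 of Tau+ lay above all 8 Ch25h+/+ libraries, and that replicate lay below all of them. The log2 fold change was 1.15 in Tau- (SE 0.22, adjusted p = 0.0284, edgeR) and 0.85 in Tau+ (SE 0.22, adjusted p = 0.0403, edgeR). mt-Nd3 lies inside the copied stretch, and its copy Gm28438 averaged 1.63 ± 0.543 and 3.21 ± 0.509 CPM in Tau- and 1.61 ± 0.154 and 2.25 ± 0.617 CPM in Tau+ (Ch25h+/+ and then Ch25h-/-, SD, n = 4).

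mt-Nd6 is the protein-coding gene that is annotated on the opposite strand from the other 12, and its end overlaps that of mt-Nd5. It stood at 785, 696, 919 and 819 CPM in Ch25h+/+ Tau-, 1132, 1085, 1317 and 1004 in Ch25h-/- Tau-, 906, 820, 904 and 725 in Ch25h+/+ Tau+ and 735, 1147, 1213 and 1397 in Ch25h-/- Tau+. The Tau- groups did not overlap, but the log2 fold change of 0.50 did not pass the test (SE 0.15, adjusted p = 0.0837, edgeR), nor did the 0.42 in Tau+ (SE 0.15, adjusted p = 0.101, edgeR). Relative to the other 12 protein-coding genes it had 2.85 ± 0.0754 and 3.21 ± 0.156 counts per 100 in Tau- and 3.19 ± 0.560 and 3.25 ± 0.354 in Tau+ (Ch25h+/+ and then Ch25h-/-, SD, n = 4). Whether strand was used in the counting is not given in the sources used here, so reads from the overlap cannot be assigned. The remaining complex I genes mt-Nd1, mt-Nd2, mt-Nd4l and mt-Nd5 had log2 fold changes of 0.26 to 0.47 in Tau- and 0.32 to 0.76 in Tau+, and 0 of them passed the test.

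mt-Cytb, the electron-carrying core of complex III, had 4482, 4050, 5008 and 4802 CPM in Ch25h+/+ Tau-, 5588, 5554, 6265 and 5294 in Ch25h-/- Tau-, 3868, 4313, 4907 and 4183 in Ch25h+/+ Tau+ and 4249, 5754, 5648 and 6570 in Ch25h-/- Tau+. All Ch25h-/- libraries but replicate 1 of Tau+ lay above all Ch25h+/+ libraries. The log2 fold changes of 0.31 in Tau- (SE 0.11, adjusted p = 0.141, edgeR) and 0.36 in Tau+ (SE 0.11, adjusted p = 0.0773, edgeR) did not pass the test.

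Complex IV passes electrons to oxygen, and mt-Co1, mt-Co2 and mt-Co3 encode its core. mt-Co1, the largest single member by counts, had 12174, 11532, 13620 and 12814 CPM in Ch25h+/+ Tau-, 15427, 14858, 15929 and 13842 in Ch25h-/- Tau-, 10021, 12087, 13913 and 11912 in Ch25h+/+ Tau+ and 11855, 15342, 14384 and 17233 in Ch25h-/- Tau+. The Tau- groups did not overlap, though the lowest Ch25h-/- value was close to the highest Ch25h+/+ value, and the log2 fold changes of 0.26 (SE 0.11, adjusted p = 0.192, edgeR) and 0.30 in Tau+ (SE 0.11, adjusted p = 0.123, edgeR) did not pass. mt-Co2, named after its values were seen, was the one protein-coding gene without overlap in Tau+, at 64.4 to 94.4 CPM in Ch25h+/+ and 107 to 119 in Ch25h-/-. Its log2 fold change was 0.55 (SE 0.15, adjusted p = 0.0532, edgeR), and its copy Gm28661 stood at 57.7 to 88.3 and 61.5 to 104 CPM in the same groups.

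The ATP synthase has 2 subunit genes in this genome, mt-Atp6 and mt-Atp8, and neither passed the test. mt-Atp6 had 75.8, 119, 172 and 38.7 CPM in Ch25h+/+ Tau-, 44.0, 86.1, 107 and 40.2 in Ch25h+/+ Tau+, 59.6, 52.1, 60.6 and 54.3 in Ch25h-/- Tau- and 53.9, 61.5, 52.8 and 60.5 in Ch25h-/- Tau+. The Ch25h-/- libraries lay close together inside the range of the Ch25h+/+ libraries, which spread 4.45-fold within Tau- alone. The log2 fold changes were -0.84 in Tau- (SE 0.33, adjusted p = 0.161, edgeR) and -0.28 in Tau+ (SE 0.33, adjusted p = 0.644, edgeR). Leaving out 1 library put the Tau- value between -1.11 and -0.46, the latter without replicate 3 of Ch25h+/+ Tau-, and the Tau+ value between -0.48 and 0.0057, the latter without replicate 3 of Ch25h+/+ Tau+. The copy Gm10925, identical over 678 bases, spread 1.92-fold in Ch25h+/+ Tau- and 1.15-fold in Ch25h-/- Tau-, but 1.52-fold in Ch25h+/+ Tau+ and 1.64-fold in Ch25h-/- Tau+, where mt-Atp6 itself spread 2.68-fold and 1.16-fold. mt-Atp8 had 201 counts over all 16 libraries, with 4 to 36 in each Ch25h+/+ and 2 to 19 in each Ch25h-/- library. No fold with Ch25h loss is read from it, since it reached the filter level in 3 Ch25h-/- libraries.

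**Figure D4:**
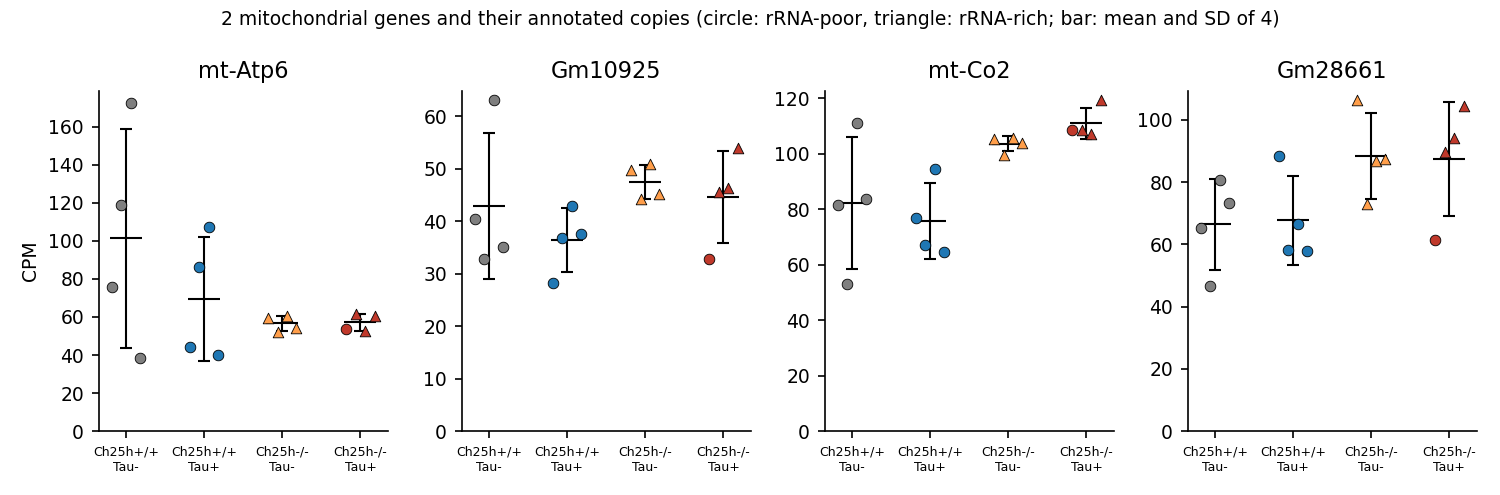
CPM per library (y axis) of mt-Atp6 and mt-Co2 and of their copies Gm10925 and Gm28661 in the 4 groups (x axis), with circles for rRNA-poor and triangles for rRNA-rich libraries and bars for the mean and SD of 4. mt-Atp6 spreads from 38.7 to 172 CPM in Ch25h+/+ Tau- and from 52.1 to 61.5 in all 8 Ch25h-/- libraries.

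Of the rRNAs, mt-Rnr1, the RNA of the small ribosomal subunit, had 1483, 1485, 1906 and 1951 CPM in Ch25h+/+ Tau-, 2724, 2084, 2239 and 2128 in Ch25h-/- Tau-, 1631, 1554, 1269 and 1310 in Ch25h+/+ Tau+ and 1548, 2068, 2590 and 2318 in Ch25h-/- Tau+. The Tau- groups did not overlap, and in Tau+ replicate 1 of Ch25h-/- lay inside the Ch25h+/+ range. mt-Rnr1 rose by 0.56 on the log2 scale in Tau+ (SE 0.14, adjusted p = 0.0391, edgeR), and its 0.43 in Tau- did not pass (SE 0.14, adjusted p = 0.111, edgeR).

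mt-Rnr2, the RNA of the large ribosomal subunit, had 2062, 1953, 2518 and 2595 CPM in Ch25h+/+ Tau-, 3237, 2544, 2786 and 2651 in Ch25h-/- Tau-, 2168, 1982, 1650 and 1802 in Ch25h+/+ Tau+ and 1941, 2611, 3288 and 2863 in Ch25h-/- Tau+. The groups overlapped in both tau states, by 1 Ch25h-/- library in each. Its log2 fold changes of 0.30 in Tau- (SE 0.14, adjusted p = 0.231, edgeR) and 0.49 in Tau+ (SE 0.14, adjusted p = 0.0559, edgeR) did not pass the test. Per 100 counts of mitochondrial messenger RNA, the mitochondrial rRNAs together had 13.8 ± 1.26 and 14.02 ± 1.59 counts in Tau- and 12.4 ± 2.87 and 13.6 ± 1.95 in Tau+ (Ch25h+/+ and then Ch25h-/-, SD, n = 4). Within each tau state the means of this ratio differed by less than the SD of the groups. The ratio for tRNAs was 0.299 ± 0.0256 and 0.333 ± 0.0142 in Tau- and 0.274 ± 0.00967 and 0.331 ± 0.0458 in Tau+, which overlapped in both.

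Of the 14 tRNAs tested, 1 rose with Ch25h loss in Tau-, where 0.214% of all genes were called higher, and 3 in Tau+, where 1.14% were. Of the tRNAs 0 fell, where 0.812% and 2.40% of all genes were called lower. mt-Th, which carries histidine, had 1.02, 0.328, 0.820 and 0.806 CPM in Ch25h+/+ Tau-, 4.28, 2.29, 3.62 and 2.96 in Ch25h-/- Tau-, 0.986, 0.715, 1.49 and 0.700 in Ch25h+/+ Tau+ and 1.29, 2.40, 3.18 and 3.93 in Ch25h-/- Tau+. It rose by 2.12 on the log2 scale in Tau- (SE 0.37, adjusted p = 0.0234, edgeR), the largest log2 fold change among members, and by 1.46 in Tau+ (SE 0.36, adjusted p = 0.0352, edgeR). These values rest on 6 to 71 counts per library. The Tau- groups did not overlap, and in Tau+ replicate 1 of Ch25h-/- lay below the highest Ch25h+/+ library.

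mt-Tc, which carries cysteine, had 9.24, 8.92, 13.8 and 12.04 CPM in Ch25h+/+ Tau-, 22.2, 19.2, 20.2 and 17.5 in Ch25h-/- Tau-, 7.02, 10.85, 9.25 and 8.82 in Ch25h+/+ Tau+ and 10.95, 21.2, 22.4 and 26.4 in Ch25h-/- Tau+. The groups did not overlap in either tau state, although replicate 1 of Ch25h-/- Tau+ exceeded the highest Ch25h+/+ Tau+ library only slightly and lay inside the Ch25h+/+ Tau- range. It rose by 1.16 on the log2 scale in Tau+ (SE 0.21, adjusted p = 0.00778, edgeR), and its 0.84 in Tau- did not pass (SE 0.21, adjusted p = 0.0570, edgeR). The Tau+ call held in all 16 fits that left out a library and with GC-corrected offsets, and was lost with the rRNA class in the model and when just the 8 libraries of the comparison were fitted.

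mt-Tp, which carries proline, had 35.2, 28.8, 51.1 and 38.5 CPM in Ch25h+/+ Tau-, 57.8, 63.6, 68.8 and 56.8 in Ch25h-/- Tau-, 27.2, 31.8, 33.7 and 32.0 in Ch25h+/+ Tau+ and 28.8, 64.0, 66.1 and 73.0 in Ch25h-/- Tau+. The 7 rRNA-rich libraries lay above the other 9, with replicate 1 of Ch25h-/- Tau+ near the bottom of the Ch25h+/+ range. It rose by 0.89 on the log2 scale in Tau+ (SE 0.21, adjusted p = 0.0315, edgeR), and its 0.68 in Tau- did not pass (SE 0.21, adjusted p = 0.0894, edgeR).

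The remaining tRNAs did not all lean the same way. mt-Tn, which carries asparagine, had 7.02, 6.78, 8.37 and 6.90 CPM in Ch25h+/+ Tau- and 6.57, 4.41, 3.62 and 5.08 in Ch25h-/- Tau-, without overlap, where 8.58% of all genes were lower without overlap. Its log2 fold change was -0.56 (SE 0.18, adjusted p = 0.0937, edgeR) and did not pass the test. In Tau+ its groups overlapped and its log2 fold change was -0.11 (SE 0.17, adjusted p = 0.735, edgeR). mt-Tn and mt-Tc, which leaned in opposite directions in Tau-, are annotated next to each other on the same strand. mt-Te, the tRNA for glutamate next to mt-Nd6, had log2 fold changes of 0.05 (SE 0.18) and 0.04 (SE 0.18), and 6 other tRNAs tested ranged from -0.36 to 1.53 in Tau- and from -0.26 to 1.13 in Tau+. That range leaves out mt-Tq, mt-Tm and mt-Tr, which reached the filter level in fewer than 4 Ch25h+/+ libraries, and no fold with Ch25h loss is read from them. mt-Tq had 1 to 9 counts in each Ch25h+/+ library and 0 to 40 in each Ch25h-/- library.

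**Figure D5:**
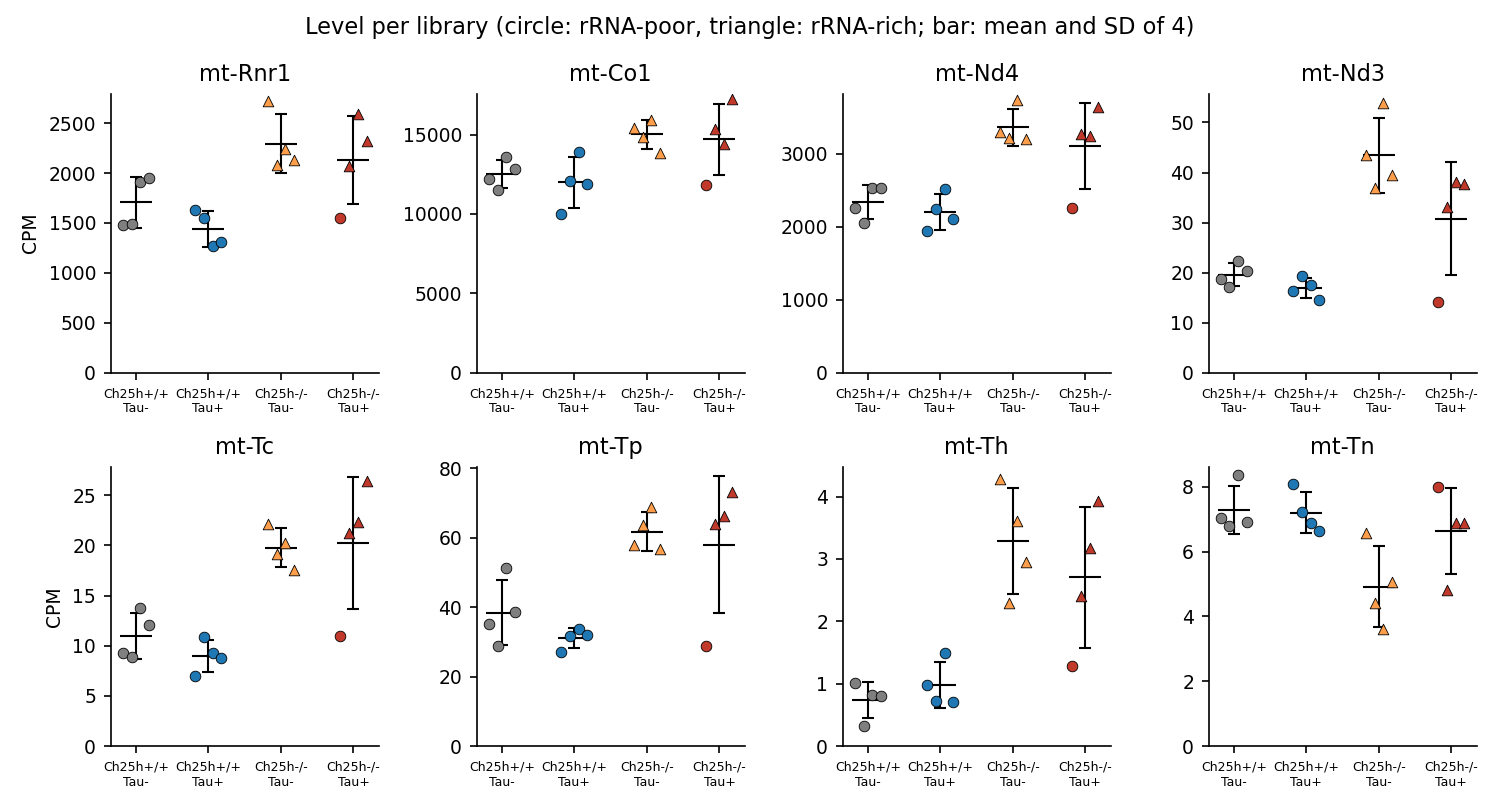
CPM per library (y axis) of 8 members in the 4 groups (x axis), with circles for rRNA-poor and triangles for rRNA-rich libraries and bars for the mean and SD of 4. In mt-Nd3, mt-Tp and mt-Nd4 the 7 triangles lie above all 9 circles, and the circle in Ch25h-/- Tau+ lies with the Ch25h+/+ libraries or below them, while mt-Tn is lower in Ch25h-/- Tau- at 3.62 to 6.57 CPM.

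Counted by overlap alone, 13 of 29 members were higher in every Ch25h-/- Tau- library than in every Ch25h+/+ Tau- library, where 7.64% of all genes were, and 1, mt-Tn, was lower, where 8.58% of all genes were. In Tau+ 2 members, mt-Co2 and mt-Tc, were higher without overlap, where 4.50% of all genes were, and 0 were lower, where 5.74% were. Without replicate 1 of Ch25h-/- Tau+, 19 of 29 were higher without overlap in Tau+, where 11.0% of all genes were, and 0 were lower, where 12.6% were. These 19 included mt-Tm and mt-Tr, and the 13 of Tau- included mt-Tr, which both reached the filter level in few Ch25h+/+ libraries. In 22 of 29 members that replicate lay below the other 3 of its group, where it did in 28.5% of all genes, and in 3 it lay above them, where it did in 29.7%. In 22 members it lay inside the range of the 8 Ch25h+/+ libraries, where it did in 83.4% of all genes. In 10 members all 7 rRNA-rich libraries lay above all 9 rRNA-poor ones, where 2.13% of all genes did, and in 0 members they lay below, where 2.73% did. These 10 were mt-Rnr1, mt-Nd3, mt-Nd4, mt-Nd5, mt-Nd6, mt-Cytb, mt-Tc, mt-Tr, mt-Th and mt-Tp, of which mt-Tr passed the filter with 3 Ch25h+/+ libraries at its level.

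Each member's share of the mitochondrial counts takes out the level that all members have in common. mt-Co1 made up 34.6 to 40.4% of the mitochondrial counts in every library, and mt-Cytb, at 13.0 to 14.2%, varied least, 1.09-fold from lowest to highest. The shares of mt-Nd4 did not overlap in either tau state, at 7.10% ± 0.281 and 8.09% ± 0.330 in Tau- and 7.13% ± 0.128 and 7.70% ± 0.255 in Tau+ (Ch25h+/+ and then Ch25h-/-, SD, n = 4). The shares of mt-Tc did not overlap either, at 0.0330% ± 0.00394 and 0.0475% ± 0.00295 in Tau- and 0.0290% ± 0.00386 and 0.0492% ± 0.00944 in Tau+. In Tau- the shares of mt-Nd3, mt-Nd6 and mt-Th were also higher and those of mt-Tn, mt-Ty and mt-Tl2 lower without overlap, which makes 5 higher and 3 lower of the 37 members. In Tau+ the share of mt-Tl1 was lower without overlap, which makes 2 higher and 1 lower of 37. These shares add up to the whole, so they are not independent, and they have no background over all genes.

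Tau status was not accompanied by a called change in any of the members tested. With tau in Ch25h+/+, 0 of 29 members were called, where 1.56% of all genes were, and 1 had an unadjusted p under 0.05, where 9.38% did. With tau in Ch25h-/-, 0 of 29 were called, where 0.0395% of all genes were, and 3 had an unadjusted p under 0.05, where 3.68% did. DESeq2 also called 0 members in both, where it called 2.39% of all genes in Ch25h+/+ and 0.0789% in Ch25h-/-. The median log2 fold change of the members was -0.12 in Ch25h+/+ and -0.04 in Ch25h-/-, against -0.01 and 0.01 over all genes tested. Single libraries moved these medians: over the 16 fits that left out 1, they ran from -0.19 (without replicate 3 of Ch25h+/+ Tau+) to -0.04 (without replicate 3 of Ch25h+/+ Tau-) in Ch25h+/+ and from -0.14 (without replicate 4 of Ch25h-/- Tau+) to 0.05 (without its replicate 1) in Ch25h-/-. With the rRNA class in the model the Ch25h-/- median was 0.06.

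A few members stood apart by tau state without passing the test. In Ch25h+/+, mt-Tm, which carries methionine, and mt-Ty, which carries tyrosine, were lower in every Tau+ than in every Tau- library, where 1.97% of all genes were, and 0 members were higher without overlap, where 3.89% were. mt-Tm reached the filter level in 2 Ch25h+/+ libraries and had a log2 fold change of -1.11 (SE 0.41, adjusted p = 0.313, edgeR). It had 10 to 13 counts in each Tau- and 4 to 7 in each Tau+ library of Ch25h+/+, and its share of the mitochondrial counts was lower without overlap too. In Ch25h-/- mt-Co2 was higher without overlap, where 1.14% of all genes were, and 0 members were lower, where 0.992% were. Its level in Ch25h-/- libraries was 99.5 to 106 CPM for Tau- and 107 to 119 for Tau+. The mitochondrial share of the counts differed with tau by -0.171 percentage points in Ch25h+/+ and -0.194 in Ch25h-/-, less than the SD within the groups. Leaving out 1 library moved the first to between -0.293 and -0.0353, and the second to 0.108 without replicate 1 of Ch25h-/- Tau+ and to between -0.382 and -0.0684 otherwise.

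The interaction of Ch25h loss and tau, which asks whether the change with Ch25h loss differed between tau states, was called in 0 of 29 members by edgeR and by DESeq2, where edgeR called 0.0338% of all genes and DESeq2 0.310%. An unadjusted p under 0.05 was found for 0 members, where 4.13% of all genes had one, and the median log2 interaction was 0.06 against 0.02 over all genes. That median ran from -0.06 to 0.17 over the fits that left out 1 library, with 0.17 without replicate 1 of Ch25h-/- Tau+ and values below 0 without replicate 3 of Ch25h+/+ Tau-, replicate 1 of Ch25h+/+ Tau+ or replicate 4 of Ch25h-/- Tau+, and was 0.18 with the rRNA class in the model. mt-Th, mt-Tc, mt-Tp, mt-Nd3 and mt-Rnr1 are therefore not shown to differ between tau states, including those called in one of them.

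The nuclear genes that copy, transcribe, process and stabilise mitochondrial RNA were read as a list of 40, all of which were tested. In each of the 5 comparisons 0 of 40 were called in either direction, where 1.03% of all genes were called in Tau- and 3.55% in Tau+ with Ch25h loss, 1.56% and 0.0395% with tau in Ch25h+/+ and Ch25h-/-, and 0.0338% for the interaction. Of the 40, 10 in Tau- and 5 in Tau+ had an unadjusted p under 0.05 with Ch25h loss, where 20.9% and 23.9% of all genes did. For tau 1 did in Ch25h+/+ and 2 in Ch25h-/-, where 9.38% and 3.68% of all genes did, and for the interaction 0 did, where 4.13% of all genes did. The median log2 fold change of the list was 0.06 in both comparisons of Ch25h loss, against 0.34 and 0.50 for the mitochondrial genes.

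Polrmt, the mitochondrial RNA polymerase, had log2 fold changes with Ch25h loss of -0.32 in Tau- (SE 0.10, adjusted p = 0.0897, edgeR) and -0.14 in Tau+ (SE 0.10, adjusted p = 0.383, edgeR). Tfam, which packages mitochondrial DNA and starts transcription with the polymerase, had 0.12 (SE 0.08) and 0.06 (SE 0.08). Lrpprc, which stabilises mitochondrial messenger RNAs, had 0.06 (SE 0.08) and 0.01 (SE 0.08). Tfam and Lrpprc did not pass the test either.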

How the data were processed

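Values are raw counts per gene and library, deposited by the authors with no normalization. The submitters' processing notes name STAR 2.7 and GRCm38/mm10; the counting program, its annotation, its use of strand and its handling of reads with several matches are not given in the sources used here. Members and gene lists were chosen with earlier results of these data known.

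The filter on low counts was filterByExpr, which kept 17736 of 54532 rows. Differences were tested with edgeR 4.0.16 (TMM, quasi-likelihood test, two-sided) in R 4.3.3. All 16 libraries entered 1 model with 1 mean for each group, with Benjamini-Hochberg adjustment over all genes tested at 0.05. Scripts were tested on simulated data. CPM values use TMM-scaled library sizes unless total counts are named. Sums and ratios over members got no test. Libraries were called rRNA-rich at 1000 CPM of CT010467.1 on total counts or more. Symbols were matched to GENCODE M21 (98.7% of rows; 105 symbols were repeated). Near-identical copies were sought with blastn 2.17.0 (at least 100 bases and 95% identity) in its transcripts in place of a genome, a search added after seeing the data.

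Full values are given for mt-Rnr1, mt-Rnr2, mt-Co1, mt-Nd6, mt-Cytb, mt-Atp6 and at most 4 tRNAs past the threshold, and from the machinery list for Polrmt, Tfam and Lrpprc where no member was called. Any other gene described in full was chosen after its values were seen. Alternatives were relative log expression size factors, scaling without the members, no filter beyond 1 count, DESeq2 1.42.0, fitting just the 2 groups of a comparison, an rRNA-class covariate, GC-corrected offsets (loess, span 0.5), other denominators for the share, and leaving out each library. Replicates were numbered in record order, so their numbers pair no samples.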

Additional observations from a re-analysis of the deposited data

Results flagged for a closer look

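Each quantity with values per library was examined in each group of 4 for a library far from the other 3, over 60 group values of 15 quantities, of which chance alone flags about 1 in 20. In 3 of them the gap to the nearest library, as a part of the group's range, exceeded Dixon's 95% critical value. In Ch25h-/- Tau+, replicate 3 had 16.5 mitochondrial rRNA counts per 100 of mitochondrial messenger RNA, against 12.5 to 12.7 in the other 3. In Ch25h+/+ Tau-, replicate 2 had 2.74 counts of mt-Nd6 per 100 of the other mitochondrial messenger RNAs, against 2.88 to 2.91. In Ch25h-/- Tau-, replicate 3 had 3740 CPM of mt-Nd4, against 3212 to 3296. Without that library 0 members and 5 of 18005 genes were called in that comparison, against 182 genes with all libraries.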

How the results depend on the processing

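The 0 calls for both tau comparisons and the interaction stayed at 0 under every alternative run, where 160 to 424 genes in all were called for tau in Ch25h+/+, 5 to 28 in Ch25h-/- and 0 to 57 for the interaction, and relative log expression size factors and scaling without the members gave 3 and 6 members called for Ch25h loss in Tau- and Tau+, as in the report, where 181 and 649 and then 178 and 638 of all genes were called. Other alternatives moved these 2 counts: no filter beyond 1 count gave 8 and 11, DESeq2 8 and 15, just the 2 groups of a comparison 10 and 0, the rRNA-class covariate 0 and 0, and GC-corrected offsets 1 and 1. Leaving out 1 library gave 0 to 7 in Tau- and 1 to 19 in Tau+, while calls over all genes ranged from 3 to 1306 and from 108 to 1691. Without the 7 members that have a copy of at most 1 mismatch, the share of counts differed by 0.540 percentage points in Tau- and 0.546 in Tau+, and without all 9 that have any copy found, with mt-Nd2 and mt-Nd5 among them, by 0.364 and 0.368, both sums over fewer genes. With the rRNA-class covariate, log2 fold changes in Tau- turned negative for mt-Rnr1 (-0.16), mt-Rnr2 (-0.29), mt-Co1 (-0.14), mt-Nd6 (-0.27), mt-Cytb (-0.19), mt-Nd4 (-0.060), mt-Nd3 (-0.21), mt-Tc (-0.25) and mt-Tp (-0.55), and in Tau+ for mt-Co1 (-0.015), mt-Nd6 (-0.19), mt-Cytb (-0.023), mt-Nd3 (-0.26) and mt-Tp (-0.11). With GC-corrected offsets mt-Rnr2 was at -0.00023 in Tau-, and leaving out 1 library put mt-Atp6 at -0.48 to 0.0057 in Tau+, above 0 without replicate 3 of Ch25h+/+ Tau+. The cause was not tested. No paired analysis was possible because replicate numbers were given in the order of the records and the columns carry none. Low counts limit the tRNAs most: 8 of 22 were too low to test, and mt-Th rests on 6 to 71 counts per library. The part of depth in these low counts was not tested.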
